A study of Mus musculus with 6 samples.

Results

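Calcineurin is the phosphatase through which a rise in cytosolic calcium reaches the nucleus. The 8 genes described here encode its catalytic subunits (Ppp3ca and Ppp3cb), its regulatory subunit (Ppp3r1), its feedback regulator (Rcan1) and transcription factors of the nuclear factor of activated T cells family, NFAT (Nfatc1, Nfatc2, Nfatc3 and Nfat5). They were chosen by name, with earlier results of these data known. Each stood on 1 row of the 54347 gene rows of the expression table, and all 8 were among the 12652 genes tested. Messenger RNA was measured in cultured microglia, the resident macrophages of the brain, from C57BL/6 mouse pups 2 to 3 days old. There were 3 libraries from Plcg2+/+ cells and 3 from Plcg2-/- cells of littermates, and all 6 came from cells cultured alike. Microglia were shaken off mixed glial cultures, grown with 5 ng/mL of the myeloid growth factor GM-CSF and 10% serum, after 12 to 13 days, and then rested for at least 72 h with 0.5 ng/mL and 1% serum. The sources used here do not state what the Plcg2-/- allele lacks.

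Phospholipase C gamma 2, the product of Plcg2, cleaves a membrane phosphoinositide below immune receptors, and the inositol trisphosphate it releases opens calcium stores. Calcium-loaded calmodulin then switches on calcineurin, which strips phosphate groups from NFATc1, NFATc2 and NFATc3 so that they enter the nucleus. Kinases such as GSK3, DYRK and CK1 put the phosphates back. NFAT5 has the family's DNA-binding domain but no calcineurin docking region, and is known for its response to salt. In cells of the macrophage lineage NFATc1 is the master factor of osteoclast formation. These steps act on the proteins, and the data here are transcript levels.

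Levels are in TPM, transcripts per 1000000, a unit that corrects for transcript length, so that genes can be set side by side, and that retains no read depth. Plcg2 itself ranged from 39.7 to 54.9 TPM across Plcg2+/+ and from 16.05 to 16.7 TPM across Plcg2-/- libraries (log2 fold change -1.45 ± 0.14 SE, limma adjusted p = 0.00141), a value of the whole gene that says nothing of the deleted stretch. The summed level of 10 microglial markers spanned 2138 to 3595 TPM in Plcg2+/+ and 2368 to 4203 TPM in Plcg2-/-. Among them Csf1r and C1qa were at 368 TPM or more in every library, but the homeostatic markers Tmem119 and Sall1 reached no more than 1.47 and 0.371 TPM. Of the 8 tested microglial markers 3 rose (P2ry12, Aif1 and Fcrls) and 2 fell (Cx3cr1 and Itgam), at a limma adjusted p below 0.05. Over all tested genes 15.6% rose and 5.31% fell. Summed markers of astrocytes were at 30.4 to 60.5 TPM in Plcg2+/+ against 43.0 to 59.6 TPM in Plcg2-/-, those of the oligodendrocyte lineage at 56.9 to 123.4 against 56.05 to 93.5, those of endothelium at 16.4 to 24.0 against 19.7 to 29.1 and those of neurons at 3.83 to 14.4 against 5.37 to 11.6. On these lists Aldh1l1 and Kdr rose and Cspg4 and Flt1 fell (limma adjusted p = 0.0282, 0.00477, 0.00141 and 0.00595), and their part in the results was not tested. Only 2 endothelial markers, Kdr and Flt1, reached a mean of 1 TPM, so that sum joins a rise and a fall. Most of the astrocyte sum in every library came from Aldh1l1 and Aldoc. The 7 markers of T and B cells summed to 1.37 to 4.005 TPM in Plcg2+/+ and 1.15 to 1.65 TPM in Plcg2-/-, with Lck the highest and Cd3e and Cd3g at 0 in all libraries. Markers of granulocytes and mast cells summed to 18.9 to 75.0 TPM in Plcg2+/+ and 24.2 to 47.3 TPM in Plcg2-/-, with S100a8 at 17.4 to 74.7 TPM across libraries. Those of fibroblasts and mural cells summed to 2.03 to 3.85 TPM in Plcg2+/+ and 1.81 to 5.32 TPM in Plcg2-/-. For bulk samples such as these, fewer cells of a type and less RNA per cell cannot be told apart. Mitochondrially encoded transcripts took 13.6 to 17.3% of TPM in Plcg2+/+ and 5.00 to 8.68% in Plcg2-/- libraries, and with these genes taken out and TPM rescaled the count of the 8 genes called higher was again 5, where 9.68% of all tested genes were called. Transcripts of 4 Y-linked genes summed to 107 and 112 TPM in Plcg2+/+ 2 and 3 and 58.6 TPM in Plcg2-/- 1, and to 0.994 TPM or less in the remaining libraries. With that level as a covariate 3 of the 8 genes described here were called higher, where the share over all tested genes was 7.44%.

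The start-site windows of Rcan1, Nfatc2 and Ppp3cb are shown because they hold most of the matches to GGAAA, the core that NFAT proteins bind. Each window runs from 250 bases before a RefSeq transcript start to 50 bases after it on GRCm38.p6 and is written 5′ to 3′ on the gene's strand. Capitals mark GGAAA or its reverse complement TTTCC. Rcan1 has a window at each of its RefSeq starts; the downstream start, inside the gene, gives the short form of the transcript, which is known as a target of NFAT.
Rcan1 upstream start, chr16:92466120-92466419, minus strand: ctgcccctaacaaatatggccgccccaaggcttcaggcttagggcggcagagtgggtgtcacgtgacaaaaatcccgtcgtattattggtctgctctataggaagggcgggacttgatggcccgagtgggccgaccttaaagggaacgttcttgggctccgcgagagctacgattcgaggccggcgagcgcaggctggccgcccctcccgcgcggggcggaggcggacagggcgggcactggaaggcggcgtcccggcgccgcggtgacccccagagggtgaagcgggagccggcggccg
Rcan1 downstream start, chr16:92400029-92400328, minus strand: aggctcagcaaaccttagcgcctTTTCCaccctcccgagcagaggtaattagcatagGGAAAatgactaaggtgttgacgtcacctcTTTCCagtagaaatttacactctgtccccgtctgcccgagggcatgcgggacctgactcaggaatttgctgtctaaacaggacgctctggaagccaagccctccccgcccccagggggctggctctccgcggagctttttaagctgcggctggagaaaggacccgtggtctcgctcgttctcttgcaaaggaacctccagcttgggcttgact
Nfatc2 upstream start, chr2:168601608-168601907, minus strand: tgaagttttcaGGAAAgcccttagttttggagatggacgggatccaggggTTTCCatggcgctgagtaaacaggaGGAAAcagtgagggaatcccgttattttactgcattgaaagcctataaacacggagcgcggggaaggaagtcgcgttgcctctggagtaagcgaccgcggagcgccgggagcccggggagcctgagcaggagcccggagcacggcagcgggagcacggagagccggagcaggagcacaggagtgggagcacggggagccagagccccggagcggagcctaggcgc
Ppp3cb start, chr14:20546524-20546823, minus strand: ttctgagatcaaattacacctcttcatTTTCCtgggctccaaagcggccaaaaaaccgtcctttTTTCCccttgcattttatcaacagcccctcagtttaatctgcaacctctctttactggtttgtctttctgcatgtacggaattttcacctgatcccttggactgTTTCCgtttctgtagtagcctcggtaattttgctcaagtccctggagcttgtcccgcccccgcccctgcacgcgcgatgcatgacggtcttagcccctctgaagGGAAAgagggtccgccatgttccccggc

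At least 1 GGAAA on either strand was found in 61.3% of the 32851 RefSeq windows of the same 300 bases, and the median window had 1. The upstream Rcan1 window had 0 and the downstream window 3, at -227, -193 and -163 bases from the start; 9.42% of all windows had 3 or more. Nfatc2 also had 3 at its upstream start, and 1 at its downstream start. Ppp3cb had 4, a number that 2.65% of windows reached. Nfat5 had 2, Nfatc3 had 1 and 0 at its 2 starts, and Ppp3r1 had 0. In all, 6 of the 8 genes had a window, the other two being Nfatc1 and Ppp3ca. A match describes the letters only and is no evidence of binding.

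Of the 8 genes, 5 rose in Plcg2-/- microglia: Nfatc1, Nfatc2, Nfatc3, Ppp3ca and Ppp3cb. None fell (limma, adjusted p below 0.05; at an unadjusted p below 0.05 the counts were 5 higher and 0 lower). Over all 12652 tested genes, 15.6% were called higher and 5.31% lower, and 28.5% and 9.13% at an unadjusted p below 0.05. Because the 8 genes were chosen with earlier results of these data known, these shares give no test of them as a set. The median log2 fold change of the 8 genes was 0.60, against 0.19 over all tested genes. All 3 Plcg2-/- values lay above all 3 Plcg2+/+ values for 6 of the 8 genes, as they did for 32.4% of tested genes. Where TPM was rescaled by the median of ratios, a scaling that brings the median of all genes from 0.19 to -0.005 on the log2 scale, 4 of the 8 were called higher, against 7.71% of all genes, and their median was 0.39. Without Plcg2+/+ 1, Plcg2+/+ 2 or Plcg2-/- 3 the count called higher was 2, where 6.18, 7.43 and 6.21% of all tested genes were called. Without Plcg2-/- 1 it was 1, against 4.42% of all tested genes, and without Plcg2+/+ 3 or Plcg2-/- 2 it was 5, against 16.6 and 14.2%. The plot of TPM by library shows each value.

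**Figure D1:**
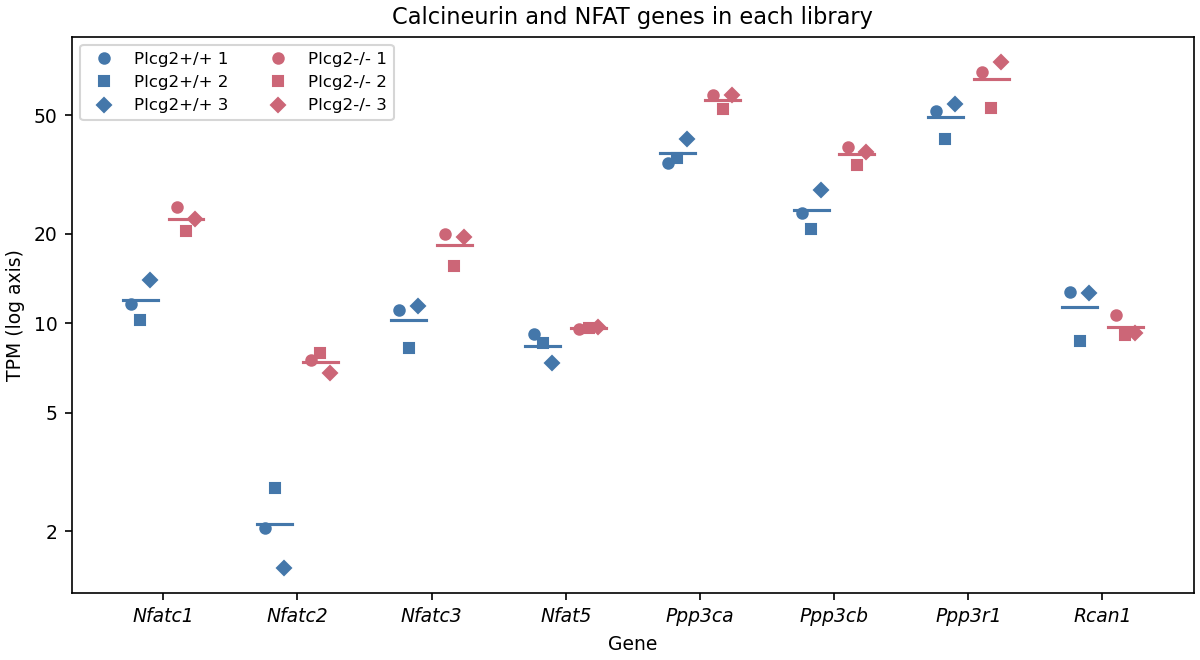
TPM of the 8 genes in each of the 6 libraries (log axis); symbols mark the library numbers, colours the genotypes and horizontal bars the genotype means. The Plcg2-/- points of Nfatc1, Nfatc2, Nfatc3, Nfat5, Ppp3ca and Ppp3cb lie above all Plcg2+/+ points of the same gene, while those of Ppp3r1 and Rcan1 overlap.

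Nfatc2 had the largest fold change among these genes, though not the largest difference in TPM. It encodes NFAT1, a calcineurin-responsive factor best known from T cells, and lies on chromosome 2 (GRCm38 168476410 to 168601657, minus strand, protein coding; ENSMUSG00000027544.16). Its level was 2.055, 2.79 and 1.51 TPM in Plcg2+/+ 1, 2 and 3 and 7.53, 7.95 and 6.79 TPM in Plcg2-/- 1, 2 and 3. The lowest Plcg2-/- library was thus well above the highest Plcg2+/+ library. The mean rose 3.50-fold, from 2.12 ± 0.644 to 7.42 ± 0.584 TPM (SD, n = 3 each). On the log2(TPM + 1) scale, which understates the change of low genes, the difference was 1.45 ± 0.19 (SE; limma adjusted p = 0.00385), a value exceeding that of 97.1% of tested genes. In each same-numbered pair of libraries it was positive, at 1.48, 1.24 and 1.64. The call held without each single library in turn (limma adjusted p of 0.0076 to 0.0272), and the fold change after median-of-ratios scaling was 1.28 (limma adjusted p = 0.00978). The gene was not tested with a minimum mean of 5 TPM, since its mean was lower.

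The profile of Nfatc2 over the 6 libraries was compared with those of all tested genes with a mean of at least 5 TPM, by the root mean square difference of log2(TPM + 1) after centring each gene on its own mean. Rassf2, a Ras-association domain gene, was nearest at 0.113, and stood at 6.42 to 10.15 TPM in Plcg2+/+ and 18.7 to 24.3 TPM in Plcg2-/-. Rassf2, Gas7 and Hpgds all rose (limma adjusted p = 0.00576, 0.0105 and 0.00670), but Gas7 lost its call without Plcg2+/+ 1 or Plcg2-/- 1 (limma adjusted p = 0.0503 and 0.0523). Gas7 and Hpgds, the gene of haematopoietic prostaglandin D synthase, followed at 0.146 and 0.147. Within Plcg2+/+ each of these genes, Nfatc2 included, was lowest in library 3 and highest in library 2, and within Plcg2-/- each was highest in library 2. These likenesses include the difference between genotypes and describe 6 libraries only. Because the genes were picked for likeness to a called gene, their rise, its p-values and the shared order largely follow from that choice.

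Nfatc1 encodes the factor that drives osteoclast differentiation and amplifies its own transcription there. The gene (ENSMUSG00000033016.16) lies on chromosome 18, minus strand. Its level was 11.6, 10.2 and 14.0 TPM in Plcg2+/+ libraries and 24.6, 20.4 and 22.4 TPM in Plcg2-/- libraries. The groups did not overlap, and the mean rose 1.88-fold from 11.9 ± 1.89 to 22.5 ± 2.13 TPM (SD, n = 3 each). The log2 fold change was 0.87 ± 0.14 (SE; limma adjusted p = 0.00946). It was 0.66 after median-of-ratios scaling (limma adjusted p = 0.0126), and without Plcg2-/- 1 the call was lost (limma adjusted p = 0.0542).

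Nfatc3, the gene of NFAT4, lies on chromosome 8 (106058840 to 106130537, plus strand; ENSMUSG00000031902.10). It was at 11.1, 8.28 and 11.4 TPM in Plcg2+/+ and 20.0, 15.5 and 19.5 TPM in Plcg2-/- libraries. Library 2 was the lowest within each genotype, and the genotypes were apart. The mean rose 1.79-fold, with a log2 fold change of 0.78 ± 0.16 (SE; limma adjusted p = 0.0194, and 0.0324 after median-of-ratios scaling). The call was lost without Plcg2+/+ 1, Plcg2+/+ 2, Plcg2-/- 1 or Plcg2-/- 3 (limma adjusted p = 0.0563, 0.0532, 0.0905 and 0.0769) and when the Y-linked level entered as a covariate (limma adjusted p = 0.0578), where the log2 fold change was again 0.78. Esrp2, an epithelial splicing gene on the opposite strand of the locus, was no higher than 1.42 TPM in any library.

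Nfat5, the family member that does not respond to calcineurin, was not called. The gene lies on chromosome 8 (107293470 to 107379517, plus strand; ENSMUSG00000003847.16). Its level was 9.235, 8.57 and 7.355 TPM in Plcg2+/+ and 9.54, 9.67 and 9.725 TPM in Plcg2-/- libraries. These groups did not overlap, but the gap was narrow, and the log2 fold change of 0.19 ± 0.12 (SE, 95% interval -0.11 to 0.48; limma adjusted p = 0.310) lay at the median of all tested genes. After median-of-ratios scaling it was -0.009.

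The make-up of the NFAT family is given as shares, which do not depend on how a library is scaled. Nfatc2 made up 6.04, 9.32 and 4.41% of the summed NFAT TPM in Plcg2+/+ libraries and 12.2, 14.9 and 11.6% in Plcg2-/- libraries. Nfat5 made up 27.15, 28.6 and 21.5% in Plcg2+/+ and 15.5, 18.1 and 16.65% in Plcg2-/- libraries. The Nfatc2 shares were all higher and the Nfat5 shares all lower in Plcg2-/- (exact permutation p = 0.1 each, two-sided). Shares of a sum are tied to one another. The TPM of Nfat5 itself did not fall, so its lower share goes with the rise of Nfatc1, Nfatc2 and Nfatc3. With 3 libraries a genotype no exact p can be lower than 0.1, so no share could pass a threshold of 0.05. The share of Nfatc1 was 36.4 ± 3.84% against 38.8 ± 0.996%, and that of Nfatc3 31.2 ± 3.11% against 31.6 ± 2.29% (SD, n = 3 each; exact permutation p = 0.4 and 0.8). Nfatc4 was at 0.0813 TPM in Plcg2+/+ 2 and listed at 0 in the other libraries. The family sum was 32.7 ± 2.41 TPM in Plcg2+/+ and 57.9 ± 4.13 TPM in Plcg2-/- (SD, n = 3 each; exact permutation p = 0.1).

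**Figure D2:**
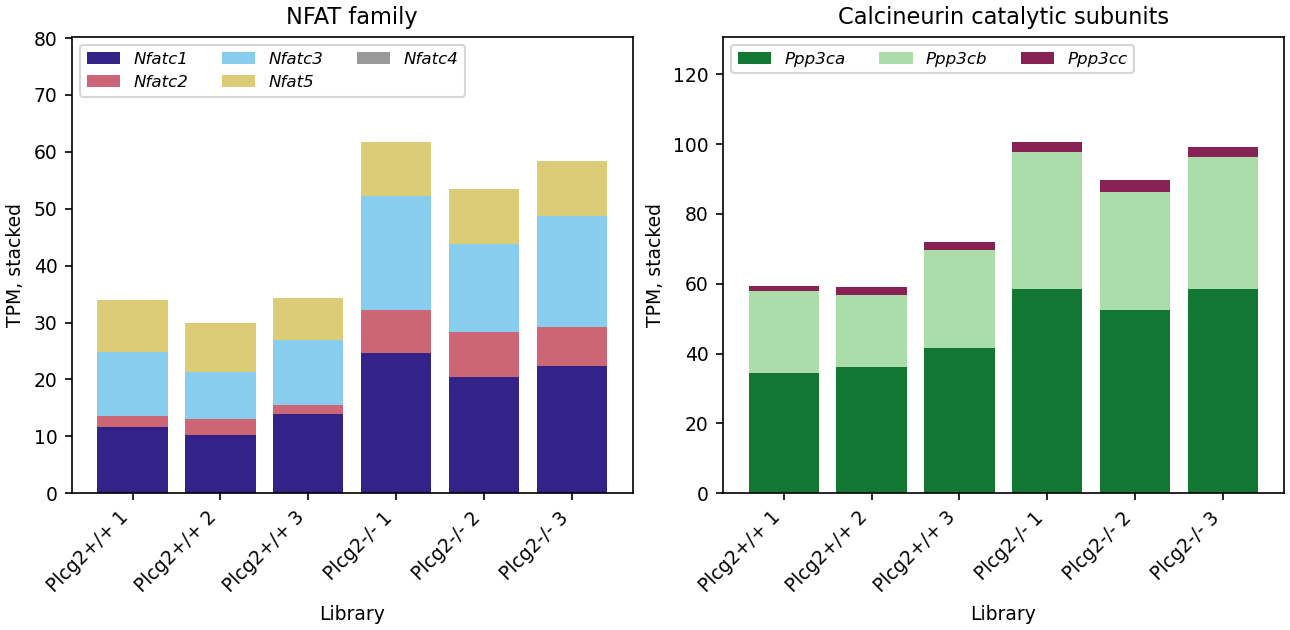
TPM stacked by gene in each library, for the NFAT family (left) and the calcineurin catalytic subunits (right), with both axes from 0. The NFAT sum is 29.95 to 34.2 TPM in Plcg2+/+ and 53.5 to 61.7 TPM in Plcg2-/-, with a mean Nfatc2 share of 6.59% and 12.9%, while Ppp3ca makes up 59.0% and 58.5% of the catalytic sum.

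Both main catalytic subunit genes of calcineurin rose. Ppp3ca, the alpha isoform (chromosome 3, 136670124 to 136937727, plus strand; ENSMUSG00000028161.17), was at 34.4, 36.0 and 41.7 TPM in Plcg2+/+ and 58.5, 52.3 and 58.6 TPM in Plcg2-/- libraries. Its mean rose 1.51-fold, a log2 fold change of 0.58 ± 0.12 (SE; limma adjusted p = 0.0165). Ppp3cb, the beta isoform (chromosome 14, 20499364 to 20546573, minus strand; ENSMUSG00000021816.11), was at 23.5, 20.8 and 28.0 TPM in Plcg2+/+ and 39.2, 34.0 and 37.7 TPM in Plcg2-/- libraries. Its mean rose 1.53-fold, a log2 fold change of 0.60 ± 0.14 (SE; limma adjusted p = 0.0240). For both genes every Plcg2-/- library exceeded every Plcg2+/+ library.

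Ppp3ca was called in 12 and Ppp3cb in 10 of 18 alternatives. After median-of-ratios scaling the fold changes were 0.37 and 0.40 on the log2 scale (limma adjusted p = 0.0421 for Ppp3ca and 0.0501 for Ppp3cb), and after quantile normalization 0.31 and 0.36 (limma adjusted p = 0.0702 and 0.0611). Ppp3ca lost its call without Plcg2+/+ 1, Plcg2+/+ 2, Plcg2-/- 1 or Plcg2-/- 3 (limma adjusted p = 0.0652, 0.0522, 0.0752 and 0.0645), and so did Ppp3cb (limma adjusted p = 0.0826, 0.0667, 0.102 and 0.0843). After adjusting for the Y-linked level the log2 fold change of Ppp3cb was 0.635 (limma adjusted p = 0.0593).

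The third catalytic gene, Ppp3cc, was far lower at 1.45, 2.15 and 2.30 TPM in Plcg2+/+ and 2.87, 3.39 and 2.865 TPM in Plcg2-/- libraries (limma adjusted p = 0.124). Its genotypes did not overlap and the ratio of means was 1.55, but it was not called (limma unadjusted p = 0.0449). Ppp3ca made up 59.0 ± 1.80% of the catalytic TPM in Plcg2+/+ and 58.5 ± 0.500% in Plcg2-/-, and Ppp3cb 37.9 ± 2.29% and 38.3 ± 0.599% (SD, n = 3 each; exact permutation p = 1 and 0.9). The catalytic sum was 59.0 to 72.0 TPM in Plcg2+/+ and 89.75 to 100.6 TPM in Plcg2-/- libraries (exact permutation p = 0.1), a ratio of means of 1.52.

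Ppp3r1 encodes calcineurin B, the calcium-binding regulatory subunit that every calcineurin dimer needs, and was the most abundant of the 8 genes. It lies on chromosome 11 (17159263 to 17200375, plus strand; ENSMUSG00000033953.10). Its level was 51.8, 41.7 and 54.5 TPM in Plcg2+/+ and 69.7, 52.7 and 75.5 TPM in Plcg2-/- libraries. Plcg2-/- 2 fell inside the Plcg2+/+ range, so the genotypes overlapped. The log2 fold change of 0.41 ± 0.17 (SE, 95% interval -0.001 to 0.81) did not pass (limma adjusted p = 0.133). Library 2 was the lowest in both genotypes, and the differences within same-numbered pairs were 0.42, 0.33 and 0.46. With the replicate number as a block Ppp3r1 passed (limma adjusted p = 0.0347), which brought the count to 6 of 8, where 19.6% of all tested genes were called higher. After median-of-ratios scaling it was 0.19 (limma adjusted p = 0.393). Per TPM of catalytic subunits, Ppp3r1 stood at 0.872, 0.706 and 0.757 in Plcg2+/+ and 0.693, 0.587 and 0.762 in Plcg2-/- libraries, which overlapped. Wdr92, which overlaps the locus on the same strand, was at 3.38 to 5.30 TPM. The testis isoform gene Ppp3r2 was listed at 0 throughout.

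Rcan1 encodes an inhibitor and modulator of calcineurin. It was the only member whose mean was lower in Plcg2-/-, and its difference did not pass. The gene (ENSMUSG00000022951.16) spans chromosome 16, 92391953 to 92470867, minus strand. Its level was 12.8, 8.74 and 12.6 TPM in Plcg2+/+ and 10.7, 9.16 and 9.25 TPM in Plcg2-/- libraries, with Plcg2+/+ 2 the lowest of all 6. The log2 fold change was -0.20 ± 0.17 (SE, 95% interval -0.59 to 0.20; limma adjusted p = 0.426) and -0.39 after median-of-ratios scaling (limma adjusted p = 0.121). The table gives 1 value per gene, so transcripts from the upstream and downstream starts shown above cannot be told apart. GENCODE lists 7 transcripts of the gene, of which a protein-coding one begins at 92400077, by the downstream start. Of the relatives, Rcan3 stood at 13.6, 9.39 and 14.9 TPM (Plcg2+/+) and at 18.9, 15.4 and 19.3 TPM (Plcg2-/-) (limma adjusted p = 0.103, and 0.0333 with the replicate number as a block). The genotypes of Rcan3 did not overlap (limma unadjusted p = 0.0342). Rcan2 was at 0.974 TPM or less in every library.

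**Figure D3:**
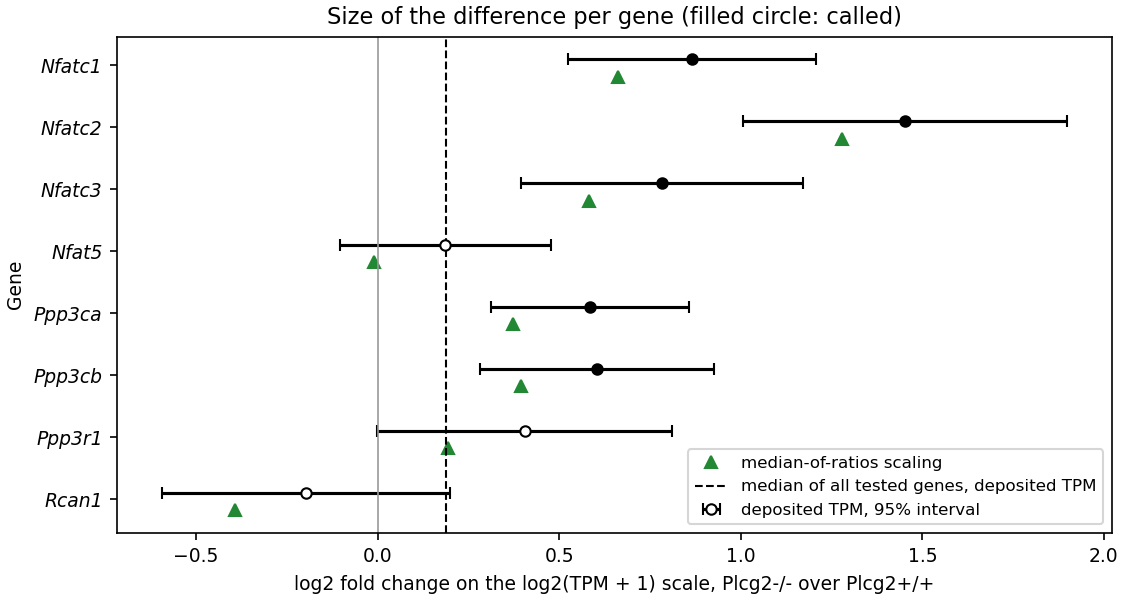
Log2 fold change of each gene on the log2(TPM + 1) scale, Plcg2-/- over Plcg2+/+. Circles with bars are the deposited TPM with the 95% interval of the limma fit (filled where called), triangles the value after median-of-ratios scaling, and the dashed line the median of all tested genes, 0.19. Nfatc2 lies farthest to the right at 1.45, Nfat5 on the dashed line, and Rcan1 to the left of 0.

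Ranked by mean level, the order in Plcg2+/+ was Ppp3r1, Ppp3ca, Ppp3cb, Nfatc1, Rcan1, Nfatc3, Nfat5 and Nfatc2. The ranges of Nfatc1, Rcan1 and Nfatc3 overlapped one another there, and those of Rcan1 and Nfatc3 overlapped that of Nfat5. Within every single Plcg2+/+ library, though, Nfatc1 and Rcan1 were both above Nfatc3, and Rcan1 was above Nfat5. In Plcg2-/- the order was Ppp3r1, Ppp3ca, Ppp3cb, Nfatc1, Nfatc3, Rcan1, Nfat5 and Nfatc2. Rcan1 at 9.69 ± 0.844 TPM and Nfat5 at 9.65 ± 0.0961 TPM (SD, n = 3 each) did not differ beyond their spread, while the values of Nfatc1, Nfatc3 and Nfatc2 stood apart from their neighbours. The ranges of Ppp3r1 and Ppp3ca overlapped in both genotypes, but Ppp3r1 was above Ppp3ca within every single library.

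Around these genes, 63 further genes of calcium-calmodulin input, NFAT kinases, other calcineurin-sensitive factors and NFAT targets were listed, of which 44 were tested. Among them 5 rose and 6 fell, beside the 15.6% and 5.31% over all tested genes. These lists, too, were chosen with earlier results of these data known. Calmodulin is the calcium sensor that activates calcineurin. Of 8 tested calcineurin regulators and calmodulin genes 3 rose and 0 fell, where 15.6% of all tested genes rose. With an unadjusted p below 0.05 there were 5 and 0, against 28.5% and 9.13% of all tested genes. After median-of-ratios scaling 2 were called higher, against 7.71% of all tested genes. With the replicate number as a block 5 were, against 19.6%, adding Calm3 and Fkbp1a; genes that only the block or the scaling added were named after their values were seen. Calm2 rose from 332 ± 19.1 to 573 ± 63.9 TPM (SD, n = 3 each; limma adjusted p = 0.00872). Calm3, which encodes the same protein, was at 84.4 ± 15.9 TPM in Plcg2+/+ libraries and 116 ± 4.71 TPM in Plcg2-/- libraries (SD, n = 3 each; limma adjusted p = 0.0635, and 0.0417 with the replicate number as a block). Cabin1, which encodes a calcineurin-binding inhibitor, rose from 25.3 ± 2.33 to 41.6 ± 9.18 TPM (limma adjusted p = 0.0353, 0.123 after median-of-ratios scaling). Cabin1 lost its call without any one of Plcg2+/+ 1, 2 and 3 and Plcg2-/- 1 and 2 (limma adjusted p = 0.0771, 0.109, 0.0724, 0.108 and 0.0780).

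The genes listed as NFAT kinases showed 1 increase among 10 tested genes and 0 decreases, a share no higher than the 15.6% over all tested genes. At an unadjusted p below 0.05 the counts were 6 and 0, against 28.5% and 9.13% over all tested genes. After median-of-ratios scaling 0 were called, against 7.71%. Dyrk2 rose from 15.9 ± 1.75 to 24.3 ± 2.90 TPM (SD, n = 3 each; limma adjusted p = 0.0264), but did not pass after median-of-ratios scaling (limma adjusted p = 0.0668) or without Plcg2+/+ 1, Plcg2+/+ 2, Plcg2-/- 1 or Plcg2-/- 3 (limma adjusted p = 0.0740, 0.0779, 0.107 and 0.0837). The list's median log2 fold change was 0.35, and 0.15 after median-of-ratios scaling. Of 8 other factors that calcineurin acts on, CREB coactivators and members of the MEF2 and TFE families, 1 rose and 0 fell. This was close to the 15.6% over all tested genes. Unadjusted, the counts were 3 and 0, against 28.5% and 9.13%. With the replicate number as a block 3 were called higher, against 19.6%, adding Mef2a and Mef2c. The gene called without the block was the CREB coactivator gene Crtc3, from 7.49 ± 1.04 to 12.5 ± 1.42 TPM (limma adjusted p = 0.0215, and 0.0645, 0.0642, 0.0948 and 0.0845 without Plcg2+/+ 1, Plcg2+/+ 2, Plcg2-/- 1 and Plcg2-/- 3).

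Nfatc1 rose, while several genes known as its targets in osteoclasts fell. Of 8 tested genes of this list, also chosen with earlier results known, 4 fell and 0 rose, where 5.31% of all tested genes fell. At an unadjusted p below 0.05, 6 were lower and 1 higher, against 9.13% and 28.5% of all tested genes. The list's median log2 fold change was -1.14. The Plcg2-/- libraries lay below all Plcg2+/+ libraries for 6 of the 8, against 10.9% of tested genes. Dcstamp, needed for the fusion of osteoclast precursors, was at 30.2, 28.1 and 21.8 TPM in Plcg2+/+ and 0.704, 0.315 and 1.18 TPM in Plcg2-/- libraries, a log2 fold change of -4.02 ± 0.22 (SE; limma adjusted p = 0.000717). Ctsk, which encodes the bone-degrading protease cathepsin K, was at 158, 255 and 173 TPM in Plcg2+/+ and 47.9, 68.8 and 75.4 TPM in Plcg2-/-, at -1.59 ± 0.24 (SE; limma adjusted p = 0.00637). Acp5, tartrate-resistant acid phosphatase, went from 57.5 ± 15.8 to 22.4 ± 5.51 TPM (limma adjusted p = 0.0120), and the integrin subunit gene Itgb3 from 9.85 ± 5.48 to 2.57 ± 1.14 TPM (SD, n = 3 each; limma adjusted p = 0.0492). The last is the weakest of the 4, at 0.0511 after median-of-ratios scaling and 0.135, 0.150, 0.170, 0.0597 and 0.149 without Plcg2+/+ 1, Plcg2+/+ 2, Plcg2-/- 1, Plcg2-/- 2 and Plcg2-/- 3. Acp5 was at 0.0599 and 0.0524 without Plcg2-/- 1 and Plcg2-/- 3. After median-of-ratios scaling 4 genes of the list were called lower, against 7.85% of all tested genes, with Atp6v0d2 (limma adjusted p = 0.0198, and 0.0548 without the scaling) in place of Itgb3. With the replicate number as a block 6 were called lower, against 6.44%, adding Atp6v0d2 and Car2. These genes also answer to other factors, and no measurement here ties their level to NFATc1.

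**Figure D4:**
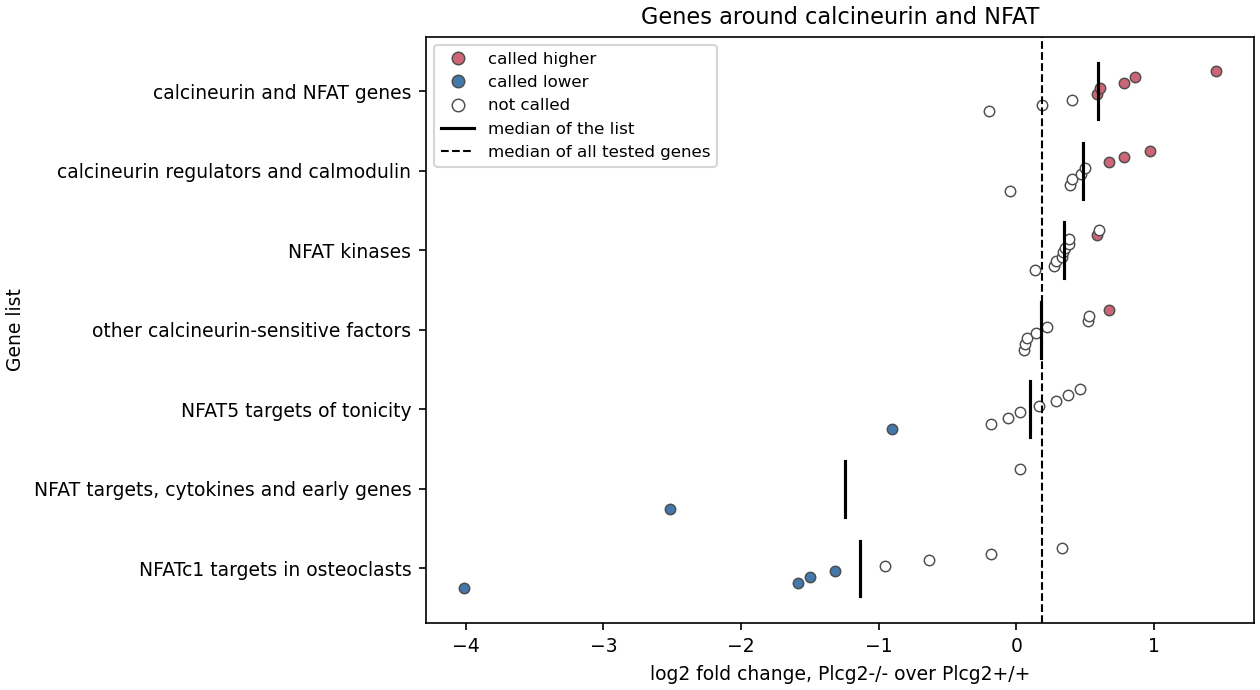
Log2 fold change of every tested gene of each list, Plcg2-/- over Plcg2+/+; colours mark genes called higher or lower, short vertical bars the median of a list and the dashed line the median of all tested genes. Called genes of calcineurin, NFAT and calmodulin lie to the right, and those among NFATc1 targets in osteoclasts to the left, down to -4.02 for Dcstamp.

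Of 13 listed cytokine and early genes that NFAT controls in lymphocytes, only 2 reached a mean of 1 TPM. Egr2, a zinc finger factor gene, was at 61.3, 70.2 and 45.7 TPM in Plcg2+/+ and 8.33, 8.12 and 11.9 TPM in Plcg2-/- libraries, a log2 fold change of -2.52 ± 0.205 (SE; limma adjusted p = 0.000959). Tnf stood at 27.4 ± 7.73 TPM (Plcg2+/+) and 27.45 ± 5.66 TPM (Plcg2-/-) (SD, n = 3 each; limma adjusted p = 0.950). Il2, Csf2 and Tnfsf11 were listed at 0 in every library. Of 8 tested genes that NFAT5 controls under osmotic stress, 1 fell and 0 rose, against 5.31% and 15.6% over all tested genes. At an unadjusted p below 0.05 these counts were 1 and 1, against 9.13% and 28.5%. The median log2 fold change of these genes was 0.10. The betaine transporter gene Slc6a12 was at 163, 242 and 159.5 TPM in Plcg2+/+ and 83.9, 127 and 88.2 TPM in Plcg2-/- libraries (limma adjusted p = 0.0319). With the replicate number as a block Slc38a2, an amino acid transporter gene, was called higher (limma adjusted p = 0.0354, and 0.0518 without it). The call of Slc6a12 was lost without Plcg2+/+ 1, Plcg2+/+ 2, Plcg2-/- 1 or Plcg2-/- 3 (limma adjusted p = 0.0740, 0.0801, 0.125 and 0.109).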

How the data were processed

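The authors deposited TPM values, 1 row per gene and 1 column for each of the 6 libraries, every column summing to 1000000. The submitters' processing notes name Salmon 1.3.0, DESeq2 1.30.1, R 4.0.4 and GRCm38.p6, with no role for each; the step that made TPM and any use of strand are not stated in these sources. Genotype came from the labels and the replicate number from the titles. Because the labels do not tie each library to its own animal or culture, the spread behind every p-value may be partly technical. The Y-linked level differed widely within each genotype, so its libraries were not all repeats of the same material. GENCODE M21 gave positions for 54094 of 54347 rows, and RefSeq (GRCm38.p6) the start-site windows.

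All tests across genes used limma 3.58.1 (R 4.3.3) on log2(TPM + 1), two-sided and without a block, for the 12652 genes whose mean was 1 TPM or more. The prior variance followed the mean level (residual df 4, prior df 2.97). Benjamini-Hochberg adjustment ran over every tested gene, with a threshold of 0.05. The members, gene lists and naming rule were chosen with earlier results of these data known. The rule names all members and relatives, up to 4 called genes per list with the smallest p, and 3 genes by likeness. The likeness is to the called member with the largest absolute log2 fold change. Same-numbered libraries deviated together (correlations across genes of 0.295, 0.193 and 0.147, each over 0.1), so the numbers may pair them. The labels do not say so, and the Y-linked level differed widely within every same-numbered pair. The main fit and the permutation tests therefore left the pairing out. Blocked values are printed where a call of a named gene or a list's count differs. Alternatives covered the pseudocount, the filter, the scaling, the prior, the pairing, the Y-linked level and each library left out. Some genes counted in the lists are not reported here by name.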

Additional observations from a re-analysis of the deposited data

How the results depend on the processing

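Results were recomputed under 18 alternatives. Nfatc1, Nfatc3, Ppp3ca, Ppp3cb, Ppp3r1 and Rcan1 kept their direction in all 18, and Nfatc2 in the 17 that tested it; Nfat5 turned to -0.009 with median-of-ratios scaling, alone and with the replicate block. Of the members, 5 were called higher in the main result, 3 with quantile normalization, 3 with the replicate block and median-of-ratios scaling, 3 after adjusting for the Y-linked level, and 1 to 5 without single libraries (2 without Plcg2+/+ 1, Plcg2+/+ 2 or Plcg2-/- 3, and 1 without Plcg2-/- 1); the cause was not tested. The replicate block alone gave 6, adding Ppp3r1. None was called lower under any of them. Of the 44 tested genes of the other lists, 5 were called higher in the main result. The count was 3 with median-of-ratios scaling, 3 with quantile normalization and 10 with the replicate block. It was 2 after adjusting for the Y-linked level and 1 to 8 without single libraries. With no filter it was 2 and with a mean TPM of at least 5 it was 9, but those settings did not test the same 44 genes. Genes of these lists called lower numbered 6 in the main result. They numbered 7 with a mean TPM of at least 5 and with quantile normalization. With the replicate block, alone or with median-of-ratios scaling, they numbered 8. There were 5 with no filter, with a constant or robust prior and after adjusting for the Y-linked level, and 3 to 6 without single libraries. Over all tested genes, 559 to 2483 were called higher and 276 to 1127 lower across the alternatives, against 1971 and 672 in the main result. These counts are out of 12652 genes, except where the filter changed. With no filter, 1226 of 26346 genes were called higher and 500 lower. A mean TPM of at least 5 gave 2016 of 9263 higher and 568 lower. Quantile normalization gave 967 and 1029, and the block joined to median-of-ratios scaling 1104 and 1127. Adjusting for the Y-linked level gave 941 and 411. A constant prior gave 651 lower and a robust prior 686. Without single libraries the difference in share ranged from -1.03 to 0.553 percentage points for Ppp3ca, -0.913 to 1.215 for Ppp3cb, -0.239 to 0.360 for Ppp3cc and -1.395 to 1.68 for Nfatc3, so these have no settled direction. It ranged from 1.31 to 4.63 for Nfatc1, 5.22 to 7.67 for Nfatc2 and -11.2 to -7.59 for Nfat5. The table keeps no read depth, so the counting error of low values such as Nfatc2 in Plcg2+/+ is unknown.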
